A study of Mus musculus with 4 samples.

Results

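The long noncoding RNA gene Fendrr, the forkhead transcription factor gene Foxf1 that is transcribed away from it, the other genes of the same stretch of chromosome 8 (Foxc2, Foxl1 and Mthfsd) and the Foxf1 paralog Foxf2 on chromosome 13 were examined in mouse sarcomas. These 6 genes, of 56691 in the deposited table, were chosen by name, with their levels in these sarcomas already known. Their difference between the groups is therefore a description and carries no p-value. RNA-seq was performed on 4 sarcomas that arose in mice heterozygous for a p53 missense allele, which the sample labels write as p53R282W/+ (the human residue number) and the study as W/+, in C57BL/6N mice. The 2 sarcomas of the ATO group (ATO 1 and ATO 2) came from mice given arsenic trioxide in drinking water from young adulthood until death, and the 2 of the PBS group (PBS 1 and PBS 2) came from W/+ mice without ATO, whose labels give PBS as the treatment. The comparison asks how the transcriptome of the tumors differs with ATO, a compound the study uses to rescue mutant p53.

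Both groups carry the same p53 allele, so neither is a p53 wild-type control. The age of each mouse, its sex and the type of each sarcoma are not given in the labels, and the study's W/+ mice developed angiosarcomas, soft tissue sarcomas and osteosarcomas. The labels describe TRIzol extraction, a SMARTER library kit and a growth protocol for cultured cells, whereas the study's methods describe tumor tissue, a spin column kit and TruSeq libraries. Total counts ranged from 15259695 to 18134000, and the mitochondrial share of the counts was 14.7% for ATO 2 and 1.98% to 2.59% for the rest.

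Forkhead factors bind DNA through a winged-helix domain, and members of the Foxf, Foxc and Foxl groups act mainly in mesoderm and its derivatives. Foxf1 is known as a Hedgehog-responsive factor of the mesenchyme around the gut and lung and of blood vessel endothelium, and Foxf2 has related functions in gut mesenchyme and pericytes. Foxc2 is known for lymphatic vessels and axial mesenchyme, and Foxl1 for the mesenchyme directly beneath the gut epithelium. Fendrr is transcribed in embryonic lateral plate mesoderm and has been described to associate with Polycomb and Trithorax complexes. Mthfsd encodes an RNA-binding protein with a methenyltetrahydrofolate synthetase domain.

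In the GENCODE M21 annotation of GRCm38, Fendrr (ENSMUSG00000097336) occupies chr8:121054882-121083110 on the minus strand, with 3 to 7 exons in its 3 transcripts. Foxf1 (ENSMUSG00000042812) occupies chr8:121084386-121088144 on the plus strand and has 2 exons. The start sites of this divergent pair are 1276 bases apart, and their exons do not overlap. The plus-strand model Gm20388 spans the whole stretch with no exon inside any of these genes, and the short minus-strand models Gm27530 and Gm27516 lie opposite exons of Foxf1 and Foxf2. These 3 models have no values in the table used here, and without a stated strand setting reads from the opposite strand cannot be told apart from those of Foxf1 and Foxf2. Mthfsd (ENSMUSG00000031816, chr8:121091628-121108392, minus strand) starts 24.0 kb from the start of Foxf1. Foxc2 (ENSMUSG00000046714, chr8:121116171-121118895, plus strand, 1 exon) starts 31.8 kb away, and Foxl1 (ENSMUSG00000097084, chr8:121127940-121130644, plus strand, 1 exon) 43.6 kb away. Foxf2 (ENSMUSG00000038402) lies at chr13:31625816-31631403 on the plus strand and has 2 exons.

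The upstream sequences of the Fendrr and Foxf2 start sites are shown because Fendrr had the lowest fitted change of the 6 genes and Foxf2 is the paralog of its partner Foxf1, whose own start was not matched. The bases were read from RefSeq on GRCm38.p6, 250 bases before each start, 5′ to 3′ on the strand of the gene, and the capitals mark the forkhead core GTAAACA. The Fendrr window is chr8:121083111-121083360 (minus strand) and ends 1026 bases short of the Foxf1 start. The Foxf2 window is chr13:31625566-31625815 (plus strand).
Fendrr: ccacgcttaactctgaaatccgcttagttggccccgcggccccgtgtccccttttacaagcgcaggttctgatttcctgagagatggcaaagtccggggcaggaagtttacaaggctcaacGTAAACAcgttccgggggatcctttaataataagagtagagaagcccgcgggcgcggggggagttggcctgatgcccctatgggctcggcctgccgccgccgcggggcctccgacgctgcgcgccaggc
Foxf2: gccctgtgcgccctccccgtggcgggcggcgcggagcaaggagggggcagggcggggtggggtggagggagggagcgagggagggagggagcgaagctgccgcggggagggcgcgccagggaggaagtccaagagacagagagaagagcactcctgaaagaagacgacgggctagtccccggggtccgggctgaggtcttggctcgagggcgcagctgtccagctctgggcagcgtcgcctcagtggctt
Of the 6 genes, 3 matched a RefSeq window (Fendrr, Foxf2 and Mthfsd). The Fendrr window had a GC content of 62.0% and 23 CpG dinucleotides, and the Foxf2 window 71.6% and 21. Across 32851 windows of the same length, the median GC content was 52.4% and the median number of CpG dinucleotides was 6. The Fendrr window held the forkhead core on its own strand at positions -129 to -123 from the start, and 3.17% of all windows held it on either strand. The Mthfsd window held no forkhead core and had the letters TATAAA at positions -247 to -242, which 12.4% of all windows held. Searched on both strands, the letters GACCACCCA, a core of the Gli binding motif, and the full p53 motif occurred in none of the 3 windows, and in 0.225% and 0.00913% of all windows. The p53 motif was sought as adjoining half-sites without a spacer or mismatch. A pattern this rare would hardly be met in 3 windows, so its absence says nothing about p53 binding.

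Fendrr and Foxf1 had a clear level in both PBS sarcomas and were much lower in both ATO sarcomas. Of the 17188 genes tested, 3557 in PBS 1 and 6808 in PBS 2 had a higher FPKM than Fendrr. The Fendrr level, in FPKM (counts scaled to the exon length of the gene and to the total count of the library), was 15.15 in PBS 1, 7.14 in PBS 2, 0.2 in ATO 1 and 0.16 in ATO 2. These values rest on 879, 426, 12 and 8 read counts. Both PBS sarcomas stood far above both ATO sarcomas, and the ATO sarcomas were nearly equal. After TMM normalization, which scales each library for its composition, Fendrr had 33.9 ± 17.5 CPM (counts scaled to the normalized library size; SD, n = 2) in PBS and 0.650 ± 0.0129 (n = 2) in ATO. The ratio of these means was 52.1, and the lower PBS value was 32.6 times the higher ATO value. The log2 fold change fitted by edgeR was -5.69 (SE 0.69), rank 31 from the lowest of 17188 genes tested.

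Foxf1 was listed at 17.26 FPKM in PBS 1, 23.34 in PBS 2, 0.39 in ATO 1 and 1.87 in ATO 2, from 728, 1013, 17 and 69 counts. Again the groups did not overlap, but here PBS 2 was the higher of the PBS sarcomas and the ATO sarcomas differed by 5.92 times on the CPM scale. The mean was 44.7 ± 9.02 CPM in PBS and 3.23 ± 3.25 CPM in ATO (SD, n = 2 each). The ratio of the means was 13.8, the lower PBS value was 6.93 times the higher ATO value, and the fitted log2 fold change was -3.80 (SE 0.97), rank 124 from the lowest.

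**Figure D1:**
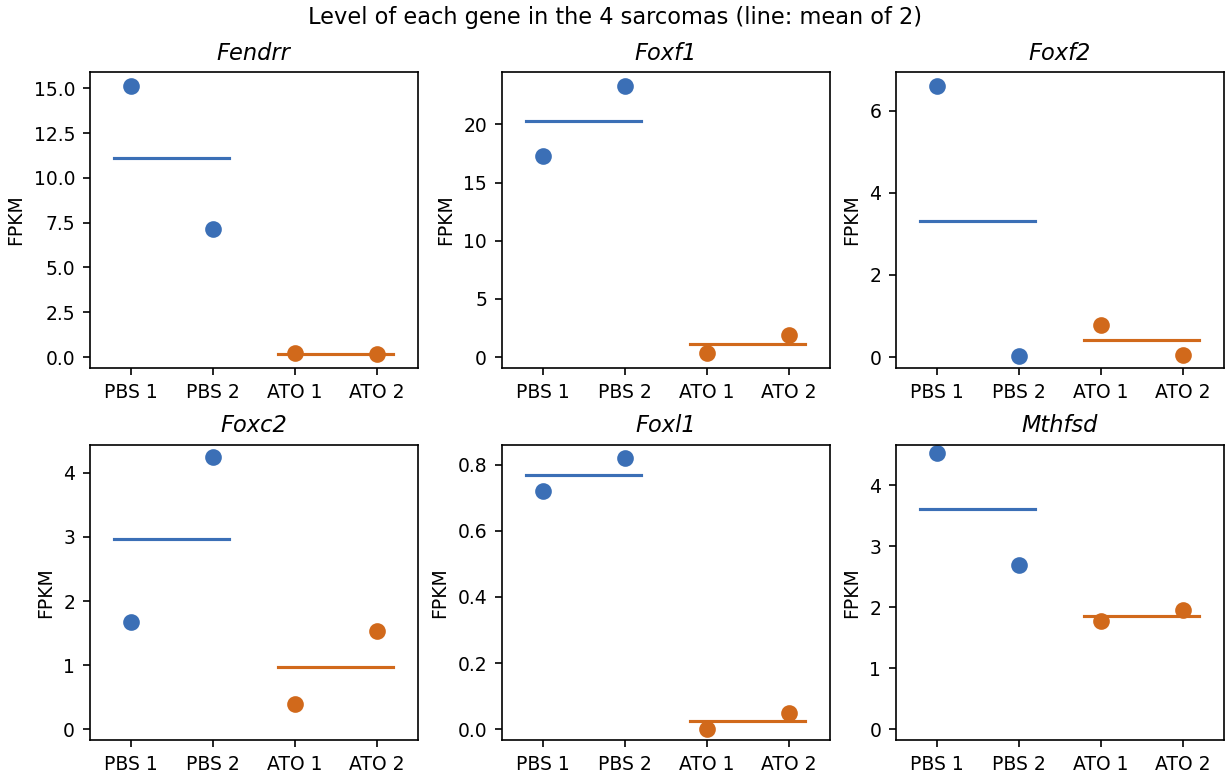
Deposited level (FPKM, linear axis from 0, a separate scale in each panel) of the 6 genes in each of the 4 sarcomas, with PBS in blue and ATO in orange; points are single sarcomas and lines the mean of 2. Fendrr, Foxf1 and Foxl1 are near 0 in both ATO sarcomas, whereas Foxf2 is high in PBS 1 alone, at 6.61 FPKM.

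The divergent pair did not keep a fixed ratio. Fendrr supplied 54.7% of the summed Fendrr and Foxf1 counts in PBS 1 (exact Clopper-Pearson 95% interval 52.2% to 57.2%, 1607 counts) and 29.6% in PBS 2 (27.3% to 32.04%, 1439 counts). In the ATO sarcomas the share was 41.4% in ATO 1 (23.5% to 61.1%, 29 counts) and 10.4% in ATO 2 (4.59% to 19.5%, 77 counts). The intervals of PBS 1 and PBS 2 did not overlap, so the pair differed in composition between tumors of the same group. The share was lower in the sarcoma numbered 2 of either group, and the range of the ATO shares overlapped that of the PBS shares. Per exon length, the ratio of Fendrr to Foxf1 FPKM was 0.878 in PBS 1, 0.306 in PBS 2, 0.513 in ATO 1 and 0.0856 in ATO 2, so Foxf1 had the higher level in every sarcoma. These intervals cover counting error only.

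**Figure D2:**
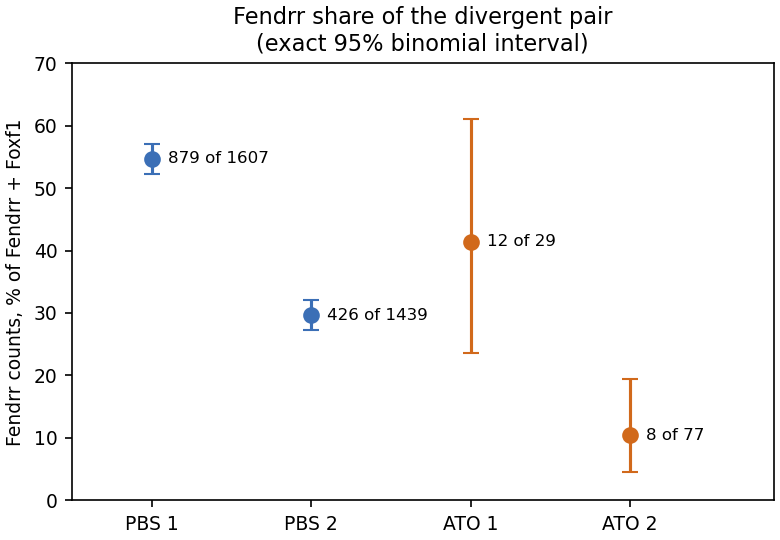
Counts of Fendrr as a percentage of the counts of Fendrr and Foxf1 together (linear axis from 0) in each sarcoma, with exact binomial 95% intervals and the counts beside each point. The share ranges from 10.4% in ATO 2 to 54.7% in PBS 1, and each ATO interval is wider than each PBS interval because fewer reads fell on the pair.

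Foxf2, the paralog on chromosome 13, did not follow Foxf1. It was listed at 6.61 FPKM in PBS 1, 0.02 in PBS 2, 0.77 in ATO 1 and 0.06 in ATO 2, from 273, 1, 33 and 2 counts. Only PBS 1 had a clear level, PBS 2 was the lowest of the 4, and the groups overlapped. On the CPM scale the PBS sarcomas differed by 285 times, with a mean of 7.21 ± 10.1 in PBS and 0.987 ± 1.17 in ATO (SD, n = 2 each). The fitted log2 fold change of -2.84 had an SE of 2.30, and without PBS 1 it was 4.13, so its sign rests on that sarcoma.

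The 2 further forkhead genes of the chromosome 8 stretch had low levels. Foxl1 was listed at 0.72 FPKM in PBS 1, 0.82 in PBS 2, 0 in ATO 1 and 0.05 in ATO 2, from 34, 40, 0 and 2 counts. The PBS sarcomas were close to each other and both ATO sarcomas were at or under the limit of 3 counts that a count of 0 allows, which in these libraries was between 0.165 and 0.197 CPM. Summed over each group, 74 counts in PBS against 2 in ATO gave a depth-adjusted ratio of 29.2 with a counting interval of 7.81 to 246, and the fitted log2 fold change was -4.61 (SE 1.35). Foxl1 passed the filter on low counts through the PBS sarcomas alone.

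Foxc2 was listed at 1.68 FPKM in PBS 1, 4.25 in PBS 2, 0.4 in ATO 1 and 1.54 in ATO 2, from 80, 208, 20 and 64 counts. The value of ATO 2 nearly reached that of PBS 1 on this scale and exceeded it after TMM normalization (5.13 against 4.21 CPM), so that whether the groups overlap depends on the scaling. The mean was 7.34 ± 4.44 CPM in PBS and 3.11 ± 2.85 CPM in ATO (SD, n = 2 each), and the log2 fold change was -1.24 (SE 1.01), a difference within the spread of the sarcomas.

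Mthfsd, the gene between Foxf1 and Foxc2 that encodes no forkhead factor, differed least. Its level was 4.53 FPKM in PBS 1, 2.69 in PBS 2, 1.77 in ATO 1 and 1.95 in ATO 2, from 838, 512, 339 and 315 counts. Both ATO values were below both PBS values, and after TMM normalization the lower PBS value was 1.02 times the higher ATO value. The log2 fold change was -0.67 (SE 0.48), and the mean was 34.9 ± 12.9 CPM in PBS and 21.9 ± 4.68 CPM in ATO (SD, n = 2 each).

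Ordered by FPKM, Foxf1 was the highest of the 6 genes in both PBS sarcomas and Fendrr the next. Their PBS ranges (17.26 to 23.34 and 7.14 to 15.15 FPKM) did not overlap each other, nor that of any of the other 4 genes. Foxf2, Mthfsd and Foxc2 followed with overlapping PBS ranges. Foxl1, with 0.72 and 0.82 FPKM, was below Mthfsd and Foxc2 but within the range of Foxf2. In both ATO sarcomas Mthfsd was the highest, and Fendrr was among the lower 3 in each. In ATO 2 the levels of Mthfsd (1.95 FPKM), Foxf1 (1.87) and Foxc2 (1.54) lay close together.

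Across all genes, 0 of 17188 (0%) passed an adjusted p of 0.05 in edgeR's quasi-likelihood test with Benjamini-Hochberg adjustment, with a smallest adjusted p of 0.570, and the coefficient of biological variation was 62.5%. At an unadjusted p under 0.05 there were 1463 genes in edgeR and 2157 in DESeq2, each of 17188 tested. DESeq2 called 714 genes (4.15%), of which 154 (0.896% of the genes tested) were lower in ATO, and edgeR without a filter on low counts called 541 of 30859 (1.75%), of which 87 (0.282%) were lower. Of the 6 genes, 0 passed in the main test and 2 (Fendrr and Foxf1) were called lower in ATO by either of these alternatives. Both ATO sarcomas were below both PBS sarcomas in TMM-normalized CPM for 4 of the 6 genes, against 20.2% of all genes tested, and above them for 0 of the 6, against 19.7%. In FPKM they were below for 5 of the 6, with Foxc2 added, against 29.6%. A fitted log2 fold change of -3 or lower was found for 3 of the 6 (Fendrr, Foxf1 and Foxl1), against 1.44% of all genes. The genes were chosen on this contrast, so nothing is read from these counts. Nothing in the labels states how the mice of a group relate to each other, and the spread is that between these sarcomas. In bulk tumor RNA, fewer cells of a type and less RNA per cell cannot be told apart.

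The tested genes on either side of the locus were not as low in ATO as Fendrr, Foxf1 and Foxl1. The locus genes were chosen with their levels known and the genes around them by position, so this contrast is a description. Foxc2 (-1.24) and Mthfsd (-0.67) lay within the range of the genes around them. The neighbours were the 53 other genes of the table that start within 1 Mb of Foxf1, of which 11 had no counts in any sarcoma and 20 were tested. The nearest tested genes were Irf8, an interferon regulatory factor of myeloid cells, 348.0 kb away, and Fbxo31, an F-box subunit of a ubiquitin ligase, 494.4 kb away on the other side. Genes nearer than these were too low to be tested, among them 5033426O07Rik, with 8, 20, 0 and 2 counts in PBS 1, PBS 2, ATO 1 and ATO 2. Irf8 (like 5033426O07Rik named for its position, after its values were seen) had 683, 1290, 930 and 809 counts in PBS 1, PBS 2, ATO 1 and ATO 2, with the groups overlapping and a log2 fold change of 0.20. Of the 20 neighbours, 11 had a higher and 9 a lower fitted level in ATO, with a median log2 fold change of 0.05 against -0.02 over all genes tested. None (0 of 20) was at -3 or lower, the lowest being -2.13 for Jph3. Jph3 and Cox4i1 (1.70), which the plot of changes by distance also labels, were chosen after their values were seen. The median changed sign with the scaling, to -0.25 with total counts alone, when the median of all genes was -0.28.

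By size of change the 4 neighbours with a mean of at least 1 FPKM that differed most were Gm42047, 1190005I06Rik, Fbxo31 and A330074K22Rik. Gm42047 was listed at 0.41, 0.56, 50.36 and 12.27 FPKM in PBS 1, PBS 2, ATO 1 and ATO 2, with both ATO sarcomas far above both PBS sarcomas and a log2 fold change of 6.20 (SE 0.84). Fbxo31 was listed at 4.56, 7.30, 37.15 and 8.21 FPKM in the same order, with ATO 1 standing apart (log2 fold change 2.12, SE 0.75). The groups overlapped for 1190005I06Rik (3.63, SE 2.18) and A330074K22Rik (-1.81, SE 1.69). In edgeR 0 of the 20 neighbours passed the adjusted threshold. An unadjusted p under 0.05 was found for 2 (Gm42047 and Fbxo31), against 1463 of all 17188 genes tested. DESeq2 called 1 (Gm42047), against 4.15% of all genes tested.

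**Figure D3:**
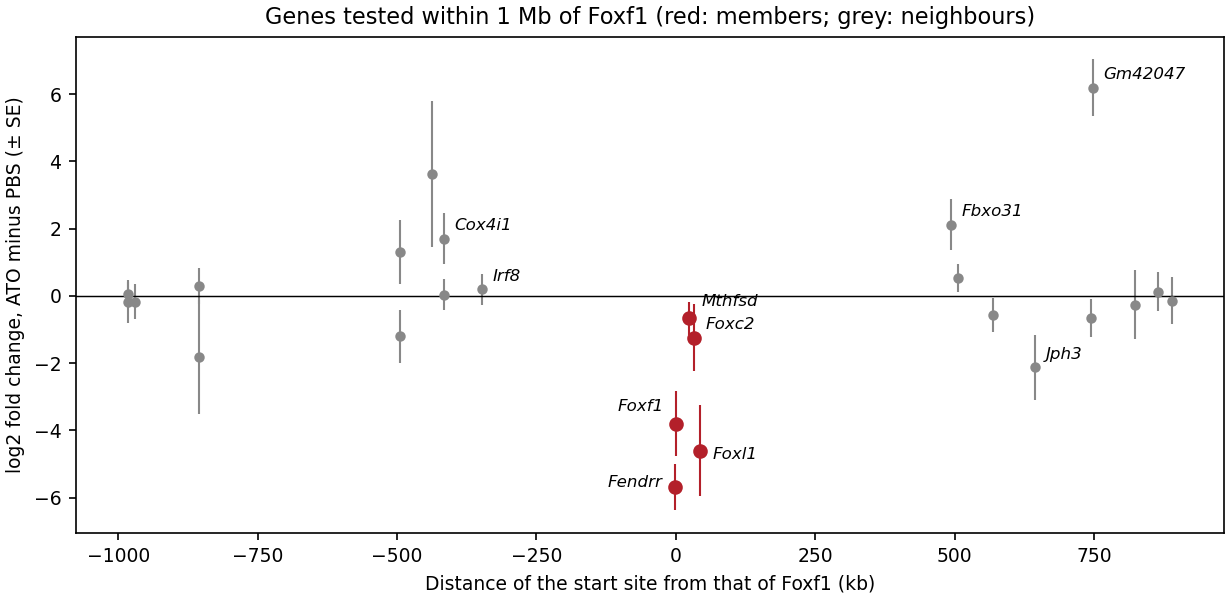
Fitted log2 fold change (ATO minus PBS, edgeR, bars ± SE) of each tested gene within 1 Mb of the Foxf1 start, against the distance of its start from that of Foxf1 in kb, with the 5 locus genes in red and 20 neighbours in grey. The locus genes Fendrr, Foxf1 and Foxl1 lie between -3.80 and -5.69, and the lowest neighbour, Jph3, at -2.13. Foxc2 (-1.24) and Mthfsd (-0.67) lie within the range of the neighbours.

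Around Foxf2, 32 other genes start within 1 Mb, of which 13 had no counts in any sarcoma and 6 were tested. Of these 6, 4 had a higher and 2 a lower fitted level in ATO, with a median of 0.58, which was 0.09 with limma on log2(FPKM + 1), 0.21 without ATO 1 and 0.32 without PBS 1. Irf4, an interferon regulatory factor of lymphoid cells, was listed at 0.15, 0.41, 0.72 and 4.48 FPKM in PBS 1, PBS 2, ATO 1 and ATO 2, with both ATO values above both PBS values (log2 fold change 3.59, SE 1.25). Irf4 was the 1 gene of these 6 with an unadjusted p under 0.05 in edgeR, against 1463 of all 17188 genes tested. In edgeR 0 of the 6 passed after adjustment. Irf4 was also the 1 called by DESeq2, against 4.15% of all genes tested. The forkhead gene Foxc1, a paralog of Foxc2 that acts in mesenchyme and vessels, was listed at 3.31, 2.83, 9.15 and 0.89 FPKM. Its highest and lowest values were both in ATO sarcomas (0.87, SE 1.01). Dusp22, a phosphatase (0.56, SE 0.43), and Gmds, an enzyme of GDP-fucose synthesis (-0.39, SE 0.49), differed little.

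The other forkhead genes did not show a common direction. Of 39 such genes, 5 had no counts and 19 were tested, with 10 higher and 9 lower in fitted level and a median log2 fold change of 0.01, which was -0.24 with total counts alone. Foxm1, which drives mitotic gene expression, was listed at 13.21, 5.91, 3.76 and 1.07 FPKM in PBS 1, PBS 2, ATO 1 and ATO 2 (-1.79, SE 0.74), and Foxs1 at 4.28, 7.13, 1.68 and 1.5 FPKM (-1.56, SE 0.66). For both, the ATO sarcomas lay below the PBS sarcomas. Foxo4, a factor restrained by insulin and growth factor signaling, was listed at 7.62, 11.22, 31.16 and 14.55 FPKM (1.51, SE 0.48), and the related Foxo1 at 3.05, 4.60, 13.08 and 4.69 FPKM (1.43, SE 0.56). Here both ATO sarcomas lay above both PBS sarcomas, with ATO 1 the highest. In edgeR 0 of the 19 passed after adjustment and 2 (Foxo4 and Foxp1, the latter named after its values were seen) had an unadjusted p under 0.05. DESeq2 called 0 and gave 5 (Foxm1, Foxo1, Foxo4, Foxp1 and Foxs1) an unadjusted p under 0.05. Over all 17188 genes tested, 1463 in edgeR and 2157 in DESeq2 had such a p.

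**Figure D4:**
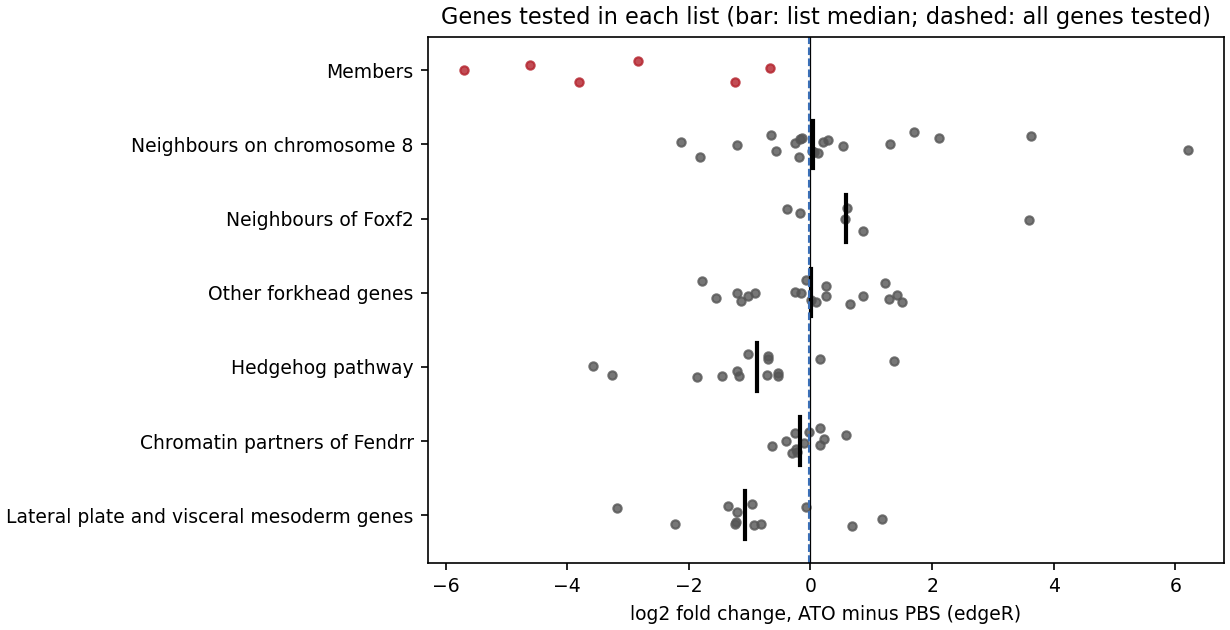
Fitted log2 fold change (ATO minus PBS, edgeR) of the tested genes of each list, 1 point per gene, with a bar at the median of the list and a dashed line at the median of all genes tested (-0.02). The 6 locus genes (red, with no bar) are all below 0, the medians of the Hedgehog and mesoderm lists are -0.87 and -1.08, and that of the other forkhead genes is 0.01.

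Components of Hedgehog signaling, the pathway that induces Foxf1 in embryonic mesenchyme, were mostly lower in ATO in fitted level, with wide spread. Of 16 genes, 14 were tested, 2 with a higher and 12 with a lower fitted level in ATO, and the median was -0.87. Of all 17188 genes tested, 8450 had a higher and 8738 a lower fitted level. Both ATO sarcomas were below both PBS sarcomas for 1 of the 14, against 20.2% of all genes tested, and above them for 0, against 19.7%. The median was -0.10 at its closest to 0 when 1 sarcoma was left out. Among the ligands, Shh had no counts in any sarcoma, and Dhh was listed at 0.10, 5.45, 0.21 and 0.25 FPKM in PBS 1, PBS 2, ATO 1 and ATO 2, so that PBS 2 alone stood high (-3.27, SE 1.77). Of the transcription factors at the end of the pathway, Gli3 was listed at 10.84, 2.04, 2.36 and 0.72 FPKM (-1.87, SE 0.98) and Gli2 at 7.53, 1.34, 2.45 and 0.41 (-1.46, SE 1.15). PBS 1 alone was high for both. The co-receptor gene Boc was listed at 3.58, 1.43, 9.13 and 2.27 FPKM (1.38, SE 0.82), with ATO 1 the highest and the groups overlapping. Shh and Ptch1, the ligand gene and the receptor gene induced by the pathway, are named after their values were seen. Ptch1 had 1.65, 2.30, 2.43 and 1.32 FPKM, with ATO 2 the lowest and ATO 1 the highest (0.16, SE 0.45). In edgeR 0 of the 14 genes passed after adjustment and 0 had an unadjusted p under 0.05. DESeq2 called 0 and gave 1 (Dhh) an unadjusted p under 0.05. Over all 17188 genes tested, 1463 in edgeR and 2157 in DESeq2 had such a p.

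The Polycomb and Trithorax genes listed as partners of Fendrr differed little. All 12 were tested, 4 with a higher and 8 with a lower fitted level in ATO, with log2 fold changes from -0.63 to 0.58 and a median of -0.17. Ash2l, a subunit of Trithorax-type methyltransferases, was listed at 7.89, 8.02, 5.48 and 3.20 FPKM in PBS 1, PBS 2, ATO 1 and ATO 2 (-0.63, SE 0.38). Ezh1, a Polycomb methyltransferase, was listed at 4.78, 9.07, 11.16 and 6.30 FPKM (0.58, SE 0.49), and its groups overlapped. Jarid2, a Polycomb cofactor (-0.40, SE 0.37), and Rbbp4, a histone-binding subunit (-0.30, SE 0.43), differed by less than 1 in log2 as well. Both edgeR and DESeq2 called 0 of the 12, and 0 had an unadjusted p under 0.05 in either.

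Of 20 genes of the lateral plate and visceral mesoderm, the embryonic domain of Fendrr and Foxf1, 12 were tested. In fitted level 10 of the 12 were lower in ATO, against 8738 of all 17188 genes tested. The median was -1.08 against -0.02 over all genes. Both ATO sarcomas were below both PBS sarcomas for 3 of the 12, against 20.2% of all genes tested, and above them for 0, against 19.7%. Gata6, a zinc-finger factor of visceral mesoderm and heart, was listed at 3.77, 1.38, 0.07 and 0.37 FPKM in PBS 1, PBS 2, ATO 1 and ATO 2 (-3.18, SE 1.17), and the T-box gene Tbx3 at 12.51, 3.02, 1.16 and 1.53 FPKM (-2.23, SE 0.82). Both ATO sarcomas were below both PBS sarcomas for these genes, and PBS 1 was the highest for each. The groups overlapped for Wnt5a, a noncanonical Wnt ligand (12.57, 5.17, 1.09 and 4.34 FPKM, on the CPM scale with ATO 2 above PBS 2; -1.35, SE 0.91). They also overlapped for Bmp4, a BMP ligand with PBS 2 the highest (5.2, 24.85, 9.59 and 1.6 FPKM; -1.24, SE 1.08). In edgeR 0 of the 12 passed after adjustment and 2 (Gata6 and Tbx3) had an unadjusted p under 0.05. DESeq2 called 0 and gave the same 2 genes an unadjusted p under 0.05. Over all 17188 genes tested, 1463 in edgeR and 2157 in DESeq2 had such a p. Without the filter on low counts edgeR called 1 gene, the T-box gene Tbx5 (named after its values were seen), which was higher in ATO, with 0, 0, 9 and 55 counts in PBS 1, PBS 2, ATO 1 and ATO 2. The median of the list was -0.42 with limma on log2(FPKM + 1). These lists were chosen with earlier results of the same sarcomas known and have no test of their own.

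The genes whose pattern over the 4 sarcomas was most like that of Fendrr were found from log2 of the TMM-normalized CPM plus 0.5, centred on the mean of the 4 sarcomas, as the root mean square difference from Fendrr over 13873 genes with a mean of at least 1 FPKM. They were Gm15446 (0.146), Lmtk3 (0.417), Gap43 (0.482), Fosl1 (0.659) and F2rl1 (0.662), all on the log2 scale. Gap43, a growth cone protein gene, was listed at 13.05, 11.47, 0.25 and 0.34 FPKM in PBS 1, PBS 2, ATO 1 and ATO 2, and Fosl1, a subunit gene of AP-1, at 7.77, 4.11, 0.19 and 0.23. The order selects genes for this pattern, so their low level in both ATO sarcomas is not a separate result. Gm15446 had 1 and 0 counts in ATO 1 and ATO 2, where the added 0.5 CPM weighs on the difference. Its fitted log2 fold change was -8.45, against -5.69 for Fendrr. F2rl1 had 0.385 CPM in ATO 1 and 1.12 in ATO 2. Foxf1 was in place 23 of this order, with a difference of 1.01.

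For Foxf1 the most alike genes were Plat (0.038), Igf2bp2 (0.307), Tubb2b (0.363), Nsg1 (0.447) and Hmcn1 (0.468). Plat, the gene of tissue plasminogen activator, was listed at 45.71, 58.9, 1.46 and 5.43 FPKM in PBS 1, PBS 2, ATO 1 and ATO 2, which follows the steps of Foxf1 in each sarcoma, and Igf2bp2, an mRNA-binding protein gene, at 11.68, 8.66, 0.21 and 0.91. Fendrr was in place 70 of the order for Foxf1. With 4 sarcomas, a like pattern is a description.

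Markers of other cell types differed between the sarcomas, and their part in the levels of the locus genes was not tested. The 6 endothelial markers summed to 568, 5152, 489 and 1162 TMM-normalized CPM in PBS 1, PBS 2, ATO 1 and ATO 2, so PBS 2 had 9.06 times the level of PBS 1. Both ATO sarcomas were below both PBS sarcomas for 0 of the 6, against 20.2% of all genes tested, and above them for 0, against 19.7%. The 4 lymphatic endothelial markers summed to 167, 888, 71.5 and 309 CPM, with PBS 2 again the highest. Lyve1 (449 CPM) and Flt4 (295 CPM) carried most of the sum in PBS 2. Pdpn differed, with 121, 101, 8.6 and 191 CPM in PBS 1, PBS 2, ATO 1 and ATO 2. Among the 7 fibroblast and mesenchyme markers, all had more than 3 counts in every sarcoma, and the sums were 35270, 8916, 33940 and 12780 CPM. Col1a1 and Col1a2 carried most of the sum in PBS 1 and ATO 1, and other markers of the list differed, with Col3a1 at 9715, 1771, 492 and 4381 CPM in PBS 1, PBS 2, ATO 1 and ATO 2. Both ATO sarcomas were below both PBS sarcomas for 2 of the 7 markers, against 20.2% of all genes tested. These were Vim (2533, 3486, 617 and 1578 CPM) and Pdgfrb (496, 351, 197 and 159 CPM). Dcn went the other way (375, 271, 454 and 1021 CPM). It was the 1 marker of the 7 with both ATO sarcomas above both PBS sarcomas, against 19.7% of all genes tested.

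Markers of 2 further types followed the groups gene by gene. Both ATO sarcomas were above both PBS sarcomas for all 6 skeletal muscle and all 5 adipocyte markers, against 19.7% of all genes tested. The muscle sums were 9.26, 233, 35180 and 2466 CPM in PBS 1, PBS 2, ATO 1 and ATO 2. The adipocyte sums were 52.2, 269, 834 and 5992 CPM. The adipocyte genes Adipoq, Plin1, Cidec and Lep had at most 3 counts in either PBS sarcoma. The muscle sum was highest in ATO 1 and the adipocyte sum in ATO 2. The smooth muscle markers summed to 667, 385, 1942 and 799 CPM, the osteoblast markers to 88.6, 30.3, 1137 and 27.9 CPM and the chondrocyte markers to 20.9, 19.2, 211 and 5.69 CPM. ATO 1 was the highest for the sums of these 3 lists, which single genes carried in part. Of these sums, only that of smooth muscle was higher in both ATO sarcomas. Among its 6 markers, 1 was higher in both ATO sarcomas and 1 lower, against 19.7% and 20.2% of all genes tested. Of the 5 osteoblast markers, 2 (Alpl and Ibsp) were higher in both ATO sarcomas, against 19.7% of all genes tested. Ibsp was at 0.721 CPM in ATO 2 against 0.655 in PBS 2. Des, which skeletal muscle also expresses, made up 1816 CPM of the smooth muscle sum in ATO 1, where Acta2 (38.7 CPM), Cnn1 (0.110), Tagln (7.09) and Myh11 (10.1) were at their lowest, and Smtn was lower in both ATO sarcomas (127, 147, 69.7 and 52.7 CPM). Col2a1 made up 196 CPM of the chondrocyte sum in ATO 1, while Sox9 was lower in both ATO sarcomas (19.9, 16.6, 7.58 and 4.89 CPM). The macrophage markers summed to 1026, 385, 1085 and 1244 CPM, with both ATO sums above both PBS sums and ATO 1 close to PBS 1. Of the 4 macrophage markers, 1 (Csf1r) was higher in both ATO sarcomas, against 19.7% of all genes tested. The leukocyte markers summed to 69.9, 359, 115 and 241 CPM, with the groups overlapping. Of the epithelia that adjoin mesenchyme known to express Foxf1 or Foxl1, the lung markers were near 0 in every sarcoma (0.0526, 0.151, 0.275 and 0 CPM). The gut and other epithelial markers summed to 2.74, 17.8, 9.61 and 45.5 CPM, with Cdx2 at or under 3 counts in all 4.

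**Figure D5:**
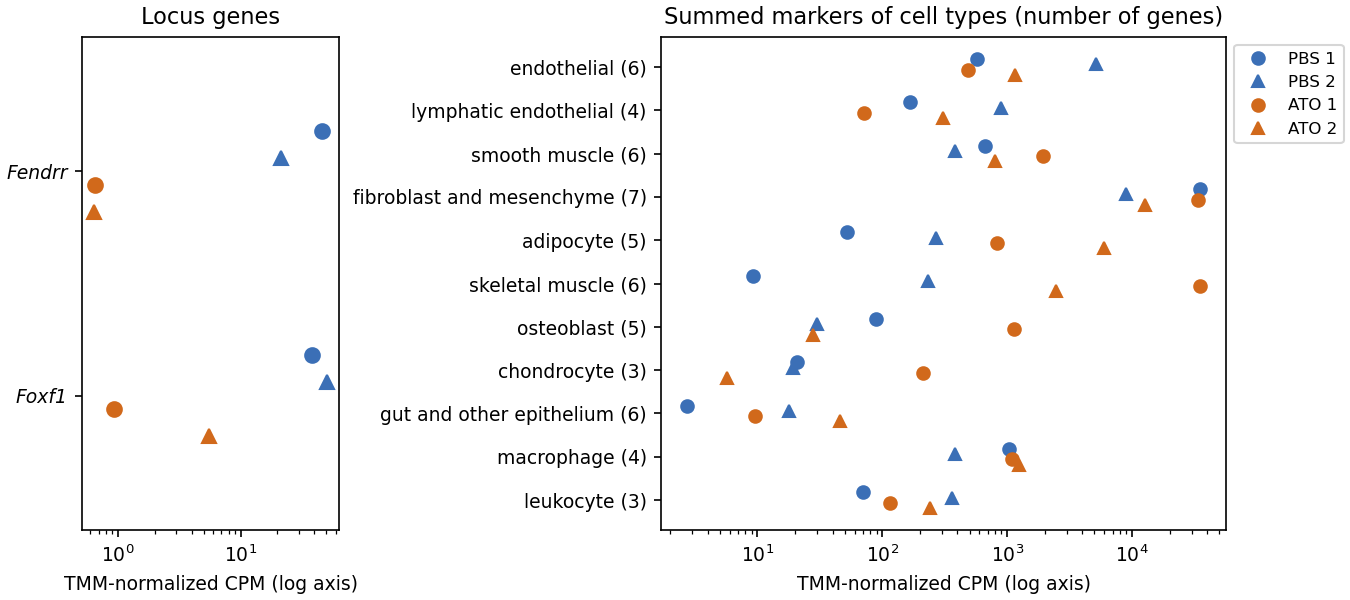
TMM-normalized CPM (log axes) of Fendrr and Foxf1 (left) and of the summed markers of 11 cell types (right) in each sarcoma, with PBS in blue, ATO in orange, circles for sarcoma 1 and triangles for sarcoma 2. The adipocyte, skeletal muscle, smooth muscle and macrophage sums are higher in both ATO sarcomas, and the endothelial sum is highest in PBS 2 (5152 CPM). Lung markers, near 0, are not drawn.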

How the data were processed

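RNA-seq was analysed from 4 sarcomas of W/+ mice, grouped as ATO (n = 2) or PBS (n = 2) by the treatment in the labels. The authors trimmed reads with cutadapt 1.9.1, checked them with FastQC 0.10.1, aligned them to GRCm38 with HISAT2 2.0.1 and made raw read counts per gene with HTSeq. They deposited these counts without normalization, with the FPKM. Recomputing FPKM from count, exonic gene size and total count gave the deposited values to within 0.0050. The strand setting of the counting and the annotation release are not given in the sources used here. Only 1435 of 52073 genes shared with GENCODE M21 had the same position in the table, so positions were taken from M21 by identifier. Symbols were empty for 2639 genes.

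The main test, over 17188 genes, was the quasi-likelihood F test of edgeR 4.0.16 (R 4.3.3) after filterByExpr and TMM, with p-values adjusted by Benjamini-Hochberg (threshold 0.05), run after the code was tested on simulated data. This test gives no SE, so each SE is the absolute log2 fold change divided by the square root of its F statistic. TMM factors were 1.09, 1.11, 1.01 and 0.822 for PBS 1, PBS 2, ATO 1 and ATO 2. As alternatives, the tool was replaced by DESeq2 1.42.0 or by limma 3.58.1 on log2(FPKM + 1) or log2(FPKM + 0.1), TMM by DESeq2 size factors or total counts alone, and the filter by none or by a minimum mean FPKM of 1. The replicate number was also added as a block, and each sarcoma was omitted in turn. Intervals and limits cover counting error only.

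The members, gene lists and cell type markers were chosen with earlier results of these data known. The genes named are the 6 members, the 4 of each list with the largest absolute fitted log2 fold change among those with a mean FPKM of at least 1, and the 5 genes most like Fendrr and Foxf1. Of the listed genes, 2 were left out of every list count and are not reported here. Promoter windows are from RefSeq (GRCm38.p6). The full p53 motif was searched on both strands as adjoining half-sites without a spacer or mismatch. Figures and sums were made in Python 3.11.15.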

Additional observations from a re-analysis of the deposited data

How the results depend on the processing

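Genes past the threshold numbered 714 with DESeq2 and 541 without the filter on low counts, and 0 under the other 6 alternatives. Fendrr, Foxf1, Foxc2, Foxl1 and Mthfsd kept a negative log2 fold change under every alternative that gave a value (Foxl1 has none at a mean FPKM of at least 1). The value moved for Fendrr to -3.28 with limma on log2(FPKM + 1), and for Foxl1 to -4.91 with total counts alone, -0.79 with limma on log2(FPKM + 1) and -2.83 on log2(FPKM + 0.1), where a pseudocount shrinks the change of a low gene. Leaving out 1 sarcoma at a time, which leaves 1 sample in a group that is assumed to vary like the other group and gives values only, the range was -6.13 to -5.03 for Fendrr, -5.56 to -3.03 for Foxf1, -5.45 to 4.13 for Foxf2, -2.72 to -0.44 for Foxc2, -8.18 to -3.53 for Foxl1 and -1.01 to -0.23 for Mthfsd. Foxf2 changed sign without PBS 1, and Foxf1 (-5.56), Foxc2 (-2.72) and Foxl1 (-8.18) were lowest without ATO 2.

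The median of the chromosome 8 neighbours was -0.25 with total counts alone, -0.25 without the filter, and -0.23 and -0.25 with limma on log2(FPKM + 1) and log2(FPKM + 0.1), and 0.00 to 0.22 with 1 sarcoma left out. The median of the other forkhead genes, 0.01, was -0.24 with total counts alone, -0.06 without the filter, -0.07 at a mean FPKM of at least 1, -0.15 and -0.17 with limma on log2(FPKM + 1) and log2(FPKM + 0.1), and -0.47 to 0.19 with 1 sarcoma left out. That of the Foxf2 neighbours was 0.09 and 0.10 with limma and 0.21 to 0.81 with 1 sarcoma left out. With 1 sarcoma left out, that of the chromatin partners was -0.48 to 0.14, that of the Hedgehog genes -1.37 to -0.10 and that of the mesoderm genes -1.92 to -0.70. The median of all genes was 0.003 with DESeq2 and with its size factors, and -0.133 to 0.11 with 1 sarcoma left out. The causes were not tested.

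The labels number the sarcomas of each group. The deviations of ATO 1 and PBS 1 from their group means had a correlation of -0.00801 across genes. With 2 sarcomas per group, this cannot decide whether same-numbered sarcomas are related, and the labels do not state it. The series design text speaks of sarcomas before and after ATO. The labels and the study speak of treated and untreated mice, which was used here. With the replicate block 0 genes passed, and the log2 fold change was -5.60 for Fendrr, -4.24 for Foxf1 and -1.5 for Foxf2. Fendrr (12 and 8 counts) and Foxl1 (0 and 2) rest on few counts in the ATO sarcomas.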
